A study of Mus musculus with 15 samples.

Results

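The regions described here are 359 open-chromatin peaks that were weaker in islets lacking Arid1a than in control islets before partial pancreatectomy (PPx, the surgical removal of part of the pancreas). They were taken from the 7826 distinct peaks of the authors' deposited comparison of genotypes before PPx. A peak was included when its control level was 3.5 or more and exceeded the knockout level by 0.75 or more, both on the log2 scale of normalised read concentration. The members were therefore chosen by their measured values. Their difference before PPx is a description without a test, and only the libraries made after PPx, from other mice, are independent of the choice.

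The assay was ATAC-seq, where a transposase inserts sequencing adapters into open DNA, on islets of male mice that were 3 months old. Both genotypes carried floxed Arid1a and MIP-rtTA, a doxycycline-dependent activator under an insulin promoter. The knockout mice (βKO) also carried TRE-Cre, so deletion was directed to insulin-producing cells, while the assay took 40000 cells of whole islets with their other cell types. Doxycycline at 1 g/L was in the drinking water of the mice for 2 weeks, PPx came 1 week after its withdrawal, and operated mice were sampled on day 6. There were 4 control and 3 βKO mice before PPx, and 4 control and 4 βKO mice after it. In bulk islets, fewer cells with an open site and less opening per cell cannot be told apart.

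ARID1A is a DNA-binding subunit of the canonical BAF form of the SWI/SNF remodeller, which uses ATP to slide or evict nucleosomes. In many cell types the complex is concentrated at enhancers, and promoters, which are held open by other factors as well, depend on it less. In β cells, SWI/SNF is known as a partner of the transcription factor PDX1 at insulin and other β cell genes.

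At the targeted gene, a peak in exon 9 of Arid1a read 1.21 for control and 5.49 for βKO before PPx, and 0.40 and 4.04 after it, in the authors' deposited tables. Whether this exon lies in the deleted stretch is not given in the sources used here, so the peak separates the labelled genotypes without measuring the deletion. Peaks at Ins1, Nkx6-1, Gcg and Sst, markers of endocrine cells, were listed before PPx. None was listed at the acinar genes Cpa1 and Cela1, at the leukocyte gene Ptprc, or at the β cell genes Ins2 and Pdx1. The level of each library was not analysed here, so depth per library is unknown, and the spread between mice enters only through the authors' p-values.

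For 64 of the 122 members at promoters, RefSeq (GRCm38.p6) gave a promoter window inside the peak, and the 250 bases before the start site of 6 of these are printed because they carry the contrast found after PPx. Psmd1, which encodes a scaffold subunit of the proteasome, Dgcr8, which encodes a microRNA-processing cofactor, and Morn2 were more accessible in βKO than in control islets after PPx. Inppl1, which encodes the lipid phosphatase SHIP2, Trmt13, which encodes a tRNA methyltransferase, and Akap8, which encodes an anchoring protein of protein kinase A, were among the promoters with the lowest difference after PPx for which a window was found. The 6 were chosen after their values were seen. Each sequence is written 5′ to 3′ on the strand of its gene, and capitals mark the ETS motif CCGGAAG and the GC box GGGCGG on either strand.
Psmd1, chr1:86064369-86064618, plus strand: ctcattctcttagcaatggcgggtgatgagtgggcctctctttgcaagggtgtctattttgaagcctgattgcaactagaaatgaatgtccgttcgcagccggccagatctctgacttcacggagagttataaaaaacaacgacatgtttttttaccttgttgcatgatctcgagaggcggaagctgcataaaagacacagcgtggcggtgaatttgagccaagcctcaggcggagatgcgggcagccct
Dgcr8, chr16:18289169-18289418, minus strand: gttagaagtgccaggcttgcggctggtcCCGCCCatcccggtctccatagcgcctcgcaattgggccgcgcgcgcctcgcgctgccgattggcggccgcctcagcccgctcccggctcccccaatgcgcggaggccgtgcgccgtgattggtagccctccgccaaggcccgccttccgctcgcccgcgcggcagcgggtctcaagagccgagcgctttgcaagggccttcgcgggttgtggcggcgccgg
Morn2, chr17:80289962-80290211, plus strand: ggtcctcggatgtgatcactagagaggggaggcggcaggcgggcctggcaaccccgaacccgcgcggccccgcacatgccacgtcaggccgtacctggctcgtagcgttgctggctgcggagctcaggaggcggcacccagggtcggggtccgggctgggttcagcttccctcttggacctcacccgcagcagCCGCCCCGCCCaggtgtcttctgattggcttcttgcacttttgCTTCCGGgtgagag
Inppl1, chr7:101838227-101838476, minus strand: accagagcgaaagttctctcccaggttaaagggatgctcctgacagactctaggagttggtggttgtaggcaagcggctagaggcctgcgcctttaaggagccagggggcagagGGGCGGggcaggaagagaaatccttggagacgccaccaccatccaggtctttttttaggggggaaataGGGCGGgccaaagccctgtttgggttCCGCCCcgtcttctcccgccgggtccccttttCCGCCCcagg
Trmt13, chr3:116614588-116614837, minus strand: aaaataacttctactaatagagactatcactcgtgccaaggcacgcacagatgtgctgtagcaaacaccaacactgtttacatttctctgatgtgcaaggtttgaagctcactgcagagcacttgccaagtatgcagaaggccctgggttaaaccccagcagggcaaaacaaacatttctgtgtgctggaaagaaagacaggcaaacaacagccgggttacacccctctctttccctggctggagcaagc
Akap8, chr17:32321239-32321488, minus strand: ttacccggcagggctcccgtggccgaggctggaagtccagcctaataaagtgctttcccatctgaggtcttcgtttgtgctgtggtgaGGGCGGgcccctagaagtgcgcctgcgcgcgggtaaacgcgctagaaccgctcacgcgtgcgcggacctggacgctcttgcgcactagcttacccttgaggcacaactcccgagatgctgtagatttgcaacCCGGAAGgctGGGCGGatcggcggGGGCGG
The windows did not fall into 2 kinds by these letters. Dgcr8 had a GC content of 73.6% and 36 CpG dinucleotides, whereas Psmd1, with the highest difference after PPx among the members, had 49.6% and 12. Among the promoters with the low difference, Akap8 had 63.6% and 24, Inppl1 60.4% and 11, and Trmt13 48.0% and 3. The GC box was present in 4 copies before Inppl1, in 3 before Akap8, in 2 before Morn2 and in 1 before Dgcr8, and these letters were not in the windows of Psmd1 and Trmt13.

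Over all 64 windows of members, the median GC content was 59.4% and the median number of CpG dinucleotides was 17.5. The 2860 windows of all promoter peaks before PPx had medians of 61.6% and 18.0, and all 32851 windows of the RefSeq table had 52.4% and 6.0. The ETS motif occurred in 20.3% of the members' windows, in 16.0% of those of all promoter peaks and in 6.9% of all windows. The GC box occurred in 59.4%, 68.8% and 32.7% of the same sets, and the E-box CAGATG, the form bound by NEUROD1, in 12.5%, 7.0% and 14.4%. Motifs were searched on both strands in the 250 bases, and the member shares rest on 38 windows for the GC box, 13 for ETS and 8 for the E-box. Within the members' windows, the other motifs searched were rarer than the GC box, ETS and the E-box. AP-1 (TGANTCA) was in 3.1% of members' windows against 3.1% of promoter-peak windows and 6.7% of all windows, and HNF1 (GTTAAT) in 4.7%, 3.0% and 6.4%. The forkhead TGTTTAC, homeodomain TAATTA, MAF TGCTGAC and RFX GTTGCCA motifs were each in 1.6% of members' windows, which is 1 window. They were in 1.8%, 1.6%, 3.1% and 3.4% of promoter-peak windows and in 3.2%, 4.8%, 3.8% and 3.7% of all windows. These shares are descriptions of the letters present, and the distal and intronic members have no sequence here.

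Before PPx the members had a median deposited level of 4.03 for control and 3.06 for βKO, and the median of their differences was 0.93, equal to 1.91-fold. The differences had quartiles of 0.825 and 1.115 and reached 2.38. A difference of 1 or more was found at 144 members and one of 1.5 or more at 17. Most members were of middling strength: control levels ran from 3.5 to 5.90, with quartiles of 3.805 and 4.28, and only 6 members were at 5 or more, out of 1037 such peaks in the table. The standard error implied by the deposited fold and p-value had a median of 0.50 over the members, so a difference at the threshold of 0.75 was not large beside the error of a single peak. The authors' deposited FDR was 1 at every member, and no peak of this table was lower in βKO at an FDR under 0.05 (0.0% of the table). An unadjusted deposited p under 0.05 was found at 163 members, against 2.3% of the whole table lower in βKO by that rule. Nothing is read from that count because the difference chose the members.

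The authors' peak calls come from the same libraries as the levels that chose the members, and are given as a description. In the authors' deposited table, 325 of the 359 members were called in at least 2 control libraries and 48 in at least 2 βKO libraries. Of all 7826 peaks, 5632 and 5579 were. No βKO library called the peak at 179 members that at least 2 control libraries called. Of all 7826 peaks, 473 were called by no βKO library, whatever the control calls. The low βKO levels that chose the members go with few βKO calls. All 4 control and all 3 βKO libraries called 11 members, so in these the peak was called in both genotypes, and the rule chose the difference in level. The matching count over all peaks was not made, so nothing is read from the 11.

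**Figure D1:**
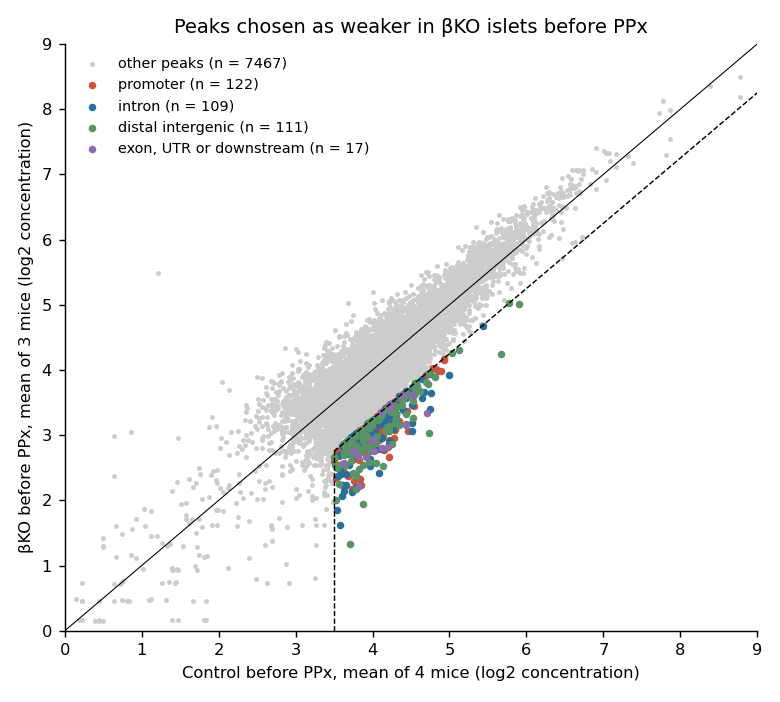
Level of each peak before PPx in control (horizontal) and βKO islets (vertical), as the deposited log2 concentration of the group. Coloured points are the 359 members by annotation class, grey points the other peaks, the solid line marks equality and the dashed lines the 2 thresholds; the members lie mostly between 3.5 and 5 on the control axis.

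The members were less often at promoters than other peaks. By the authors' annotation, 122 members (34.0%) were at promoters, 109 (30.4%) in introns, 111 (30.9%) in distal intergenic sequence and 17 (4.7%) in exons, untranslated regions or just downstream of a gene. In the whole table, 70.0% of peaks were at promoters, 9.6% in introns and 18.3% in distal sequence. The 131 peaks that met the mirrored rule, with a βKO level of 3.5 or more that exceeded control by 0.75 or more, were at promoters in 60.3%, in introns in 13.7% and in distal sequence in 23.7%. The 5956 strong peaks that differed by less than 0.75, with a control level of 3.5 or more, were at promoters in 76.7%. Members at promoters and in introns had nearly the same level before PPx, a median of 4.02 in control islets in both, and distal members had 4.06. The members carried 351 gene names. Of the members, 67 (18.7%) were assigned to predicted genes, close to the 18.4% of all peaks. Per chromosome they made up between 2.68% of the peaks, on X, and 6.16%, on chromosome 3.

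**Figure D2:**
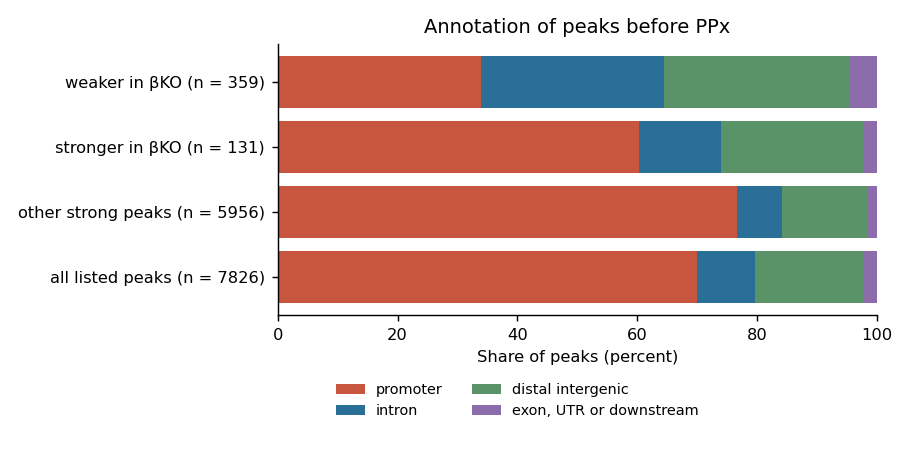
Share of peaks in each annotation class, in percent, for the members (weaker in βKO), the mirrored set (stronger in βKO), the other strong peaks and all listed peaks before PPx. Promoters make up 34.0% of the members and 70.0% of all listed peaks.

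The widest difference was at a distal peak nearest to Cntnap5b, which encodes a cell-adhesion protein of the neurexin family (chr1:99739958-99740558). Its deposited level was 3.71 for control and 1.33 for βKO before PPx, and 3.33 and 2.98 after PPx. The deposited difference after PPx was -0.36 with an implied standard error of 0.48, so most of the gap seen before PPx was not there. A distal peak near Fam107a went from 4.73 and 3.03 before PPx to 4.37 and 3.92 after it, in control and βKO islets in the authors' deposited tables. An intronic peak of Pde4d, a phosphodiesterase that degrades cyclic AMP, read 4.09 and 2.42 before PPx and 3.82 and 3.74 after it in the same tables. A distal peak near Lrfn2 read 3.79 and 2.18 before and 3.24 and 3.40 after, and an intronic peak of Ksr2, a scaffold of the Raf and MEK kinases, read 3.73 and 2.13 before and 3.42 and 3.48 after. In all of these the genotypes were closer after PPx than before. After PPx all peaks of the genotype comparison had a median of 0.61 towards βKO. Measured from that median, the peaks of Cntnap5b, Fam107a, Pde4d, Lrfn2 and Ksr2 stood at -0.97, -1.06, -0.69, -0.46 and -0.55. The remaining members with the widest differences were at Senp7, Nnt, Esr1 and Slc35b1, which had no matching peak in the table after PPx, and downstream of Dyrk3, where control and βKO islets read 3.82 and 2.22 before PPx and 4.05 and 4.10 after it in the authors' deposited tables.

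Members at the edge of the rule differed from their neighbours outside it by the rounding of the deposited values alone. Just inside, peaks at Sh3bp4, Nox4 and Myh10 had a deposited difference of 0.75, and just outside, peaks at Ccser1, Mrps14 and Ccar1 had one of 0.74. After PPx, βKO minus control in the authors' deposited table was 0.82, -0.54 and 0.79 at the peaks inside and 0.32, 1.05 and 0.46 at those outside.

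Of the 359 members, 333 had a peak with its centre within 600 bp in the table of genotypes after PPx, which holds 13111 peaks. The 26 without one had a lower median control level before PPx (3.815 against 4.05 for those followed), and 6 of them were at promoters. Over the 333, the median difference after PPx, βKO minus control, was 0.26 in the authors' deposited table, with quartiles of -0.03 and 0.56 and a range from -1.70 to 1.59. All peaks of that table had a median of 0.61 (1.53-fold), so the whole table was shifted towards βKO. The other strong peaks had a median of 0.70 and the mirrored set 0.78. A difference below 0 was found at 89 followed members (26.7%) and at 9.48% of the table. A difference below the table's median was found at 258 followed members (77.5%), and at 42.9% of all 7504 peaks followed from the table before PPx.

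Because membership required a wide difference in noisy libraries, regression to the mean shrinks that difference in other libraries even at peaks where nothing has changed. How much of the shrinkage it makes up was not tested. Measured from the median of each table, the members stood at -0.93 before PPx and at -0.35 after it. The mirrored set went from a median of 0.87 before PPx to 0.17 from the table's median after it. Both sets thus kept their side of the median and lay closer to it in the second set of mice. The classes had different medians after PPx: 0.71 at promoter, 0.37 at intronic and 0.39 at distal peaks. Only 34.0% of members were at promoters, and how much of the -0.35 goes with class was not tested. PPx and the change of mice came together, so the operation and the second sampling cannot be told apart in these values. The scale differs by the reference: the members' median was above 0 in the deposited values and below the median of the table.

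Few members differed between the genotypes at the authors' threshold. With a deposited FDR under 0.05, 3 followed members were lower in βKO than in control islets after PPx, as were 0.0839% of the table. By the same rule 14 were higher (4.2% of those followed), as were 9.88% of the table. An unadjusted deposited p under 0.05 was found at 9 members lower in βKO, against 0.526% of the table, and at 51 higher, against 33.0%. An approximate test against the table's median, with the implied standard errors and Benjamini-Hochberg adjustment over 13110 peaks, placed 9 members lower, against 0.374% of those peaks. By class, the test placed lower 3 of 98 intronic, 6 of 102 distal and 0 of 116 promoter members. Over all followed peaks of these classes it placed lower 10 of 677, 24 of 1323 and 5 of 5349. The table's median lies above the medians of intronic and distal peaks, 0.37 and 0.39. It placed no member higher, against 0.0153%. A distance of 0.5 or more below the table's median was found at 120 followed members (36.0%) and at 13.6% of the table.

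The 3 members lower in βKO at the deposited FDR were all distal and nearest to predicted genes. They are named although such genes were otherwise only counted. That FDR did not follow the order of the deposited p-values. An intronic member of Vps45 had a deposited p of 0.0012 and did not pass, while Gm22563 and Gm20812 passed with 0.004 and 0.0056. How the FDR was set is not given in the sources used here, so the shared annotation of the 3 may depend on it. Of the followed distal peaks, 3 of 102 members and 7 of all 1323 were lower at a deposited FDR under 0.05. The peak near Gm22464 (chrX:15753616-15754216) read 4.91 and 3.21 in control and βKO islets after PPx, a deposited difference of -1.70 with an FDR of 0.0212. The peak near Gm22563 (chr4:51475289-51475889) read 4.00 and 2.76 after PPx, a deposited difference of -1.25 with an FDR of 0.0419. The peak near Gm20812 (chrY:11857824-11858424) read 4.96 and 4.04 after PPx, a deposited difference of -0.93 with an FDR of 0.0459. Before PPx the same peaks read 4.52 and 3.52, 4.29 and 3.19, and 5.03 and 4.26 in the authors' deposited table. At these sites βKO islets were the lower group in both sets of mice. The rule set that order before PPx and the FDR after PPx picked these peaks, so the shared order is partly fixed by choice. The deposited differences after PPx had implied standard errors of 0.42, 0.43 and 0.34, and whether the gaps changed was not tested. How reads that fit several places of the genome were counted is not given in the sources used here, and near-identical copies of Y-linked sequence could share reads.

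The remaining members that were lower relative to the table's median were near named genes except for Gm13680. An intronic peak of Vps45, which encodes a protein of vesicle fusion (chr3:96044455-96045055, intron 7 of 14), read 3.61 and 2.24 before PPx and 3.85 and 2.19 after it in control and βKO islets in the authors' deposited tables. Its difference after PPx was -1.66 with an implied standard error of 0.51 and an adjusted p of 0.0097 in the approximate test, while the deposited FDR was 1. In Kirrel3, which encodes an adhesion protein of the immunoglobulin superfamily (chr9:34619960-34620560, intron 2 of 16), the peak read 4.51 and 3.19 before and 4.66 and 3.73 after PPx in the deposited tables. Its deposited FDR was 0.0687 and its adjusted p in the approximate test was 0.0329. A distal peak near P4ha2, which encodes a collagen prolyl hydroxylase subunit (chr11:54140032-54140632), was among the strongest members. It read 5.78 and 5.02 before PPx and 5.94 and 5.19 after it in the deposited tables, with an adjusted p of 0.0238 in the approximate test. A distal peak near the potassium channel gene Kcnh5 (4.55 and 3.80 before, 4.51 and 3.79 after, deposited levels) and an intronic peak of the F-box gene Fbxw4 (5.44 and 4.67 before, 5.38 and 4.70 after) had adjusted p-values of 0.0333 and 0.0408. At P4ha2, Kcnh5 and Fbxw4 the 4 group levels showed nearly the same gap between genotypes in both sets of mice, with deposited FDRs after PPx of 0.0779, 0.0935 and 0.107. The rule before PPx and the approximate test after it picked these peaks, so their shared order is partly fixed by choice. Peaks near Vwde and in introns of Nkain3 and Tmem267 were as far down after PPx, at -0.87, -0.72 and -0.82 in the authors' deposited table, and passed neither test.

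The 14 members higher in βKO were all at promoters, as were 1056 of the 1172 followed peaks higher by this rule. Of the followed promoter peaks, 12.1% of members and 19.7% of all were higher. At Psmd1 (chr1:86064335-86064935) control and βKO islets read 4.08 and 2.93 before PPx and 3.09 and 4.68 after it in the authors' deposited tables, so the order of the genotypes turned. The deposited difference after PPx was 1.59 with an implied standard error of 0.37 and an FDR of 0.0154. Dgcr8 read 4.01 and 3.16 before PPx and 3.46 and 4.77 after it, a deposited difference of 1.31 with an FDR of 0.0267. The promoter of Fastkd1, a gene of mitochondrial RNA metabolism, was at 1.17, and those of Morn2 and Plpp5, a lipid phosphatase gene, at 1.11 in the deposited table. Brf1, which encodes a subunit of the RNA polymerase III initiation factor TFIIIB, was at 1.08, Abhd4 and Creg1 were at 1.07, and the predicted gene Gm12868 was at 1.05 in the deposited table. The smallest deposited differences among these members were at Amd1, an enzyme gene of polyamine synthesis (1.03), Tpm3, a tropomyosin gene (1.02), Upb1, an enzyme gene of pyrimidine breakdown (1.02), and Pabpc1, which encodes the cytoplasmic poly(A)-binding protein (0.90, FDR 0.0485). Cdc37l1 had a difference of 1.51 with a deposited FDR of 1, at a control level after PPx of 2.13. In the deposited comparison of times in control islets, 13 of the 14 were listed and had changes from -0.66 to -0.05, and in that of βKO islets all 14 had changes from 1.33 to 2.03. These directions are partly fixed by choice, because the 14 were picked by their levels before PPx and by βKO above control after it.

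**Figure D3:**
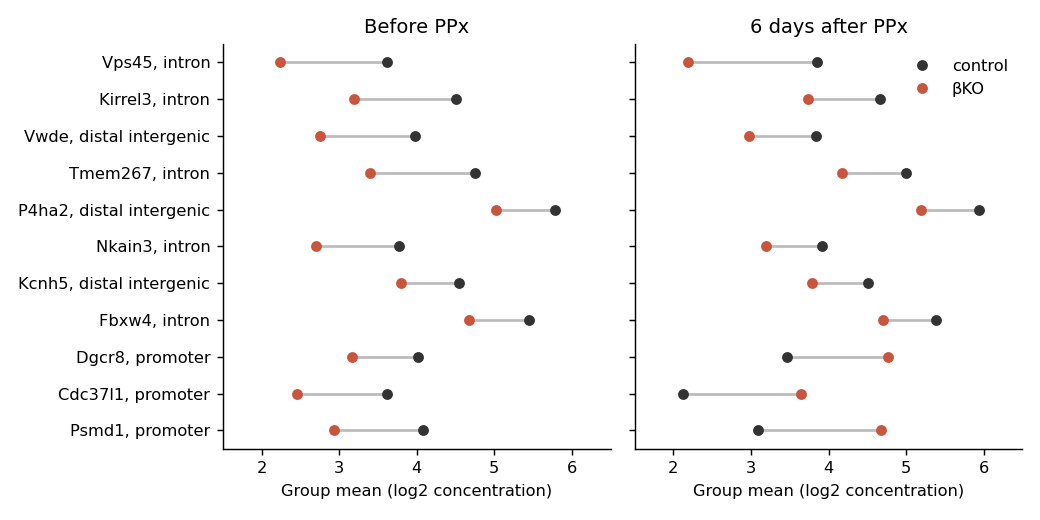
Deposited log2 concentration of control (dark) and βKO (red) islets before PPx and 6 days after it, at the 8 members with the lowest and the 3 with the highest difference after PPx, predicted genes left out. Points are group values without error bars because levels per mouse were not analysed here; at Psmd1 the order of the genotypes turned, and at P4ha2 it did not.

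Promoter and other members differed after PPx. Members at promoters had a median difference of 0.60 (116 followed) in the authors' deposited table, against 0.71 for all promoter peaks. Members in introns had 0.155 (98 followed), against 0.37 for all intronic peaks, and distal members had 0.12 (102 followed), against 0.39 for all distal peaks. The 17 members in exons, untranslated regions or downstream had 0.09, against 0.39. A difference below 0 was found at 9 promoter members (7.8%), 36 intronic members (36.7%) and 38 distal members (37.3%). The same shares in the whole table were 2.9%, 21.4% and 18.9%. In each class the members thus lay below the class median, and at promoters they lay closest to it. The difference between the classes was not tested.

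The group levels after PPx show the same split. Promoter members had median deposited levels of 3.62 for control and 4.22 for βKO, intronic members 3.865 and 4.01, and distal members 3.88 and 3.99. At least 2 libraries called the peak at 206 followed members for control and at 306 for βKO. Over all 7504 followed peaks the counts were 5257 and 7306, in the same order. The mirrored set had medians of 0.81, 0.61 and 0.525 at promoters, introns and distal sites, and the other strong peaks had 0.74, 0.435 and 0.45.

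**Figure D4:**
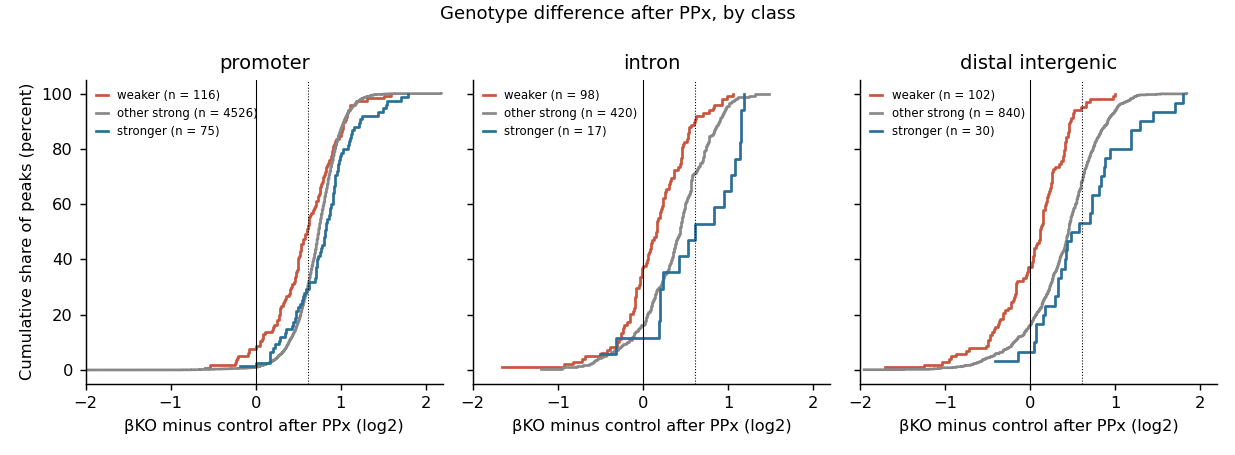
Cumulative share of peaks, in percent, by βKO minus control after PPx on the log2 scale, for members (weaker before PPx), other strong peaks and the mirrored set (stronger before PPx) in 3 annotation classes. The solid vertical line is 0 and the dotted line the median of the table, 0.61; members lie to the left of the other strong peaks, with medians of 0.155 and 0.12 in introns and distal sequence.

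The difference after PPx was also compared between peaks inside and outside the rule, in bins of the difference before PPx. For peaks with a control level of 3.5 or more, intronic peaks that were between 0 and 0.25 weaker in βKO before PPx had a median of 0.48 after it. Those between 0.25 and 0.5 weaker had 0.29 and those between 0.5 and 0.75 weaker 0.32. Inside the rule, those between 0.75 and 1 weaker had 0.16, those between 1 and 1.25 weaker 0.16, and those 1.25 or more weaker 0.00 (17 peaks). Distal peaks had 0.46, 0.28, 0.27, 0.13, 0.04 and 0.07 (13 peaks) in the same bins. Promoter peaks had 0.72, 0.69, 0.64, 0.58, 0.57 and 0.64 (11 peaks). These medians lay near the table's median of 0.61, and all but the first lay below the 0.71 of all promoter peaks. The bins with the widest differences held few peaks. Across the 333 followed members alone, Pearson's r between the differences before and after PPx was -0.07, and over all 7504 peaks followed it was -0.29. Peaks share libraries and are not independent replicates, so these coefficients are descriptions.

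**Figure D5:**
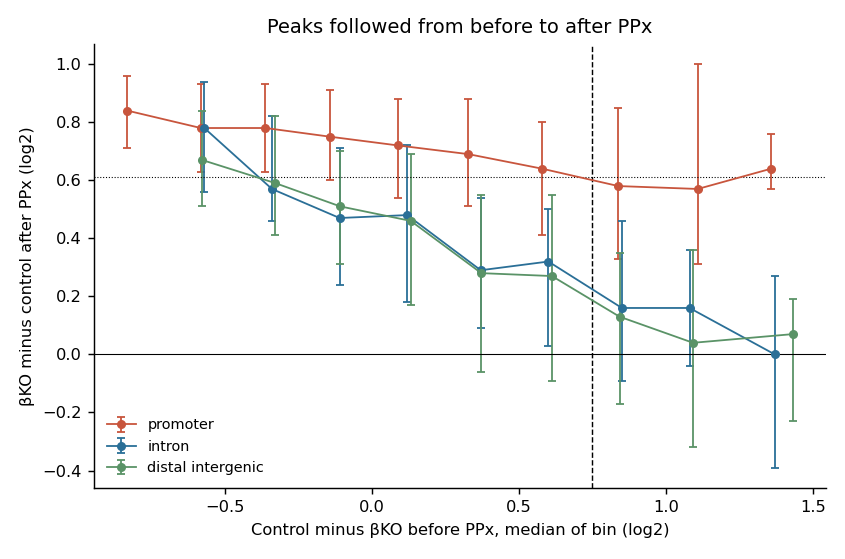
Median difference after PPx (βKO minus control, log2) of peaks with a control level of 3.5 or more, in bins of the difference before PPx (control minus βKO, log2). Error bars span the quartiles of the peaks, the dashed line marks the threshold of 0.75 and the dotted line the median of the table; intronic and distal medians are 0.16 and 0.13 in the first bin past the threshold, while the promoter median is 0.58.

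From a list of 37 β cell identity genes, 15 had 18 peaks before PPx. Of these peaks, 3 were members (16.7%, beside 359 of 7826 in the table). An intronic peak of Slc30a8, the zinc transporter of insulin granules (chr15:52315984-52316584, intron 2 of 7), read 4.51 and 3.06 in control and βKO islets before PPx, by the authors' deposited table. After PPx it read 4.49 and 4.34, a deposited difference of -0.15 with an FDR of 0.74. Ptprn2, which encodes a phosphatase-like protein of secretory granules, had an intronic peak that read 4.00 and 2.92 before PPx and 4.09 and 3.97 after it in the deposited tables. In the deposited comparisons of times, the differences at Slc30a8 and Ptprn2 were 1.56 and 1.28 in βKO islets and 0.29 and 0.35 in control islets. None of the 3 passed the deposited FDR after PPx. The median of all 18 peaks of the list was -0.02 before PPx, beside 0.00 over the whole table. After PPx the list had 33 peaks at 21 genes, with a median of 0.57 beside 0.61 over the table. At the deposited FDR 4 of the peaks were higher and 0 lower in βKO, beside 9.88% and 0.0839% of the table. The promoter of Ins1 went the other way before PPx, with deposited levels of 4.12 for control and 5.08 for βKO.

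Markers of the other cells of the preparation had few peaks. Of 5 peaks at 5 genes of α, δ, PP and ε cells, with a median βKO minus control of -0.21 before PPx, 1 was a member (beside 359 of 7826 in the table). Of 7 peaks at 2 duct genes, with a median of 0.09, 1 was a member (14.3%), in the 3′ untranslated region of Pkhd1, which encodes the ciliary protein fibrocystin. It read 4.23 and 3.43 before PPx and 4.37 and 3.95 after it in the deposited tables. Endothelial genes with 2 peaks and stromal genes with 3 had no member, and acinar and leukocyte genes had no peak before PPx. No member was at one of the 8 peaks of 7 SWI/SNF genes. Their part in the members' difference was not tested.

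Of 33 genes of neural adhesion and synapses, long genes of which islet cells use several, 26 had 59 peaks before PPx, and 5 of these peaks were members. Besides Cntnap5b, an intronic peak of Csmd1 read 4.05 and 2.79 before PPx and 3.88 and 3.46 after it in the authors' deposited tables. The deposited difference after PPx was 0.02 at Nlgn1, which encodes a postsynaptic adhesion protein. The share of members among the list's peaks, 8.5%, stands beside 359 of 7826 in the table. After PPx the list had 123 peaks with a median of 0.34, and the deposited FDR was under 0.05 at 0 of them. Genes hosting intronic members had a median length of 198 kb, and those hosting any intronic peak had 191 kb.

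There were 7 named genes with 2 members each, and differences within a pair were not tested. At Dyrk3, a kinase gene, the promoter peak went from 3.76 and 2.29 before PPx to 3.34 and 4.32 after it in the authors' deposited tables, and the downstream peak had a deposited difference of 0.05 after PPx. At Ubac2 the promoter read 4.93 and 4.15 before PPx and 4.38 and 4.96 after it, and the intronic peak 4.23 and 2.91 before and 3.47 and 3.65 after, in the deposited tables. At Chd7, a chromatin remodeller gene, the deposited difference after PPx was 0.61 in intron 1 and 0.09 in exon 24. At Dpyd both members were lower in βKO in both sets of mice, at -0.31 and -0.08 after PPx in the deposited table. The pairs at Dennd11, Trio and Slc36a4 had 0.54 and 0.36, 0.20 and 0.05, and 0.12 and 0.04 in the deposited table. None of these peaks had a deposited FDR under 0.05 after PPx.

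Among the other strong members, the βKO level was the higher one after PPx at Prkar2b (0.31), Cactin (0.47), Mysm1 (0.84) and Mboat7 (0.80) in the authors' deposited table.

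The deposited comparisons over time share the libraries before PPx that chose the members, so their values are set side by side without a test. In βKO islets, the 318 members listed had a median of 1.19 from before to after PPx, beside 0.83 over that table, and 2 were below 0. The deposited FDR was under 0.05 and the level higher at 78 of them, beside 7.44% of the table. Nothing is read from that count or from the FDRs of single members below, because low βKO levels before PPx chose the members. In control islets, the 345 members listed had a median of -0.06, beside 0.16 over that table, and 198 were below 0. No peak of the control comparison had a deposited FDR under 0.05 (0.0% of 8070). The βKO medians were 1.37 at promoters, 1.13 in introns and 1.08 at distal members, and the control medians were -0.16, -0.03 and 0.06. The mirrored set had 0.32 in βKO and 0.475 in control islets. The widest rise in βKO islets was at an intronic peak of Olfm4, a secreted glycoprotein gene, from 1.85 to 4.20 with a deposited FDR of 0.0192, chosen after its values were seen. At Slc30a8 the level in βKO islets went from 2.88 to 4.43 with a deposited FDR of 0.0484. Levels of βKO islets before PPx read a median of 0.23 lower in this table than in the comparison of genotypes, and those of control islets 0.18 lower, so levels are compared only within a table.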

How the data were processed

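Islet ATAC-seq peaks of 15 mice were analysed from 4 deposited tables. Cutadapt, BWA, MACS, DiffBind and ChIPseeker with mm10 (GRCm38) are named per the submitters' processing notes; their versions and settings, and whether reads were shifted to the Tn5 cut, were not given in the sources used here. Per the file headers, every deposited table holds a log2 concentration for each group, a log2 fold, a p-value and FDR, and the authors' count of libraries in which a peak was called. Folds were signed here as βKO minus control or after minus before. Repeated positions were counted once, and 1 empty row was dropped. Peaks of 601 bp were matched by the nearest centre within 600 bp.

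Implied standard errors were the deposited fold over the normal quantile of its p-value, where p was under 0.5 and the change 0.1 or more, otherwise from the median of 20 bins of concentration. The approximate normal test left out 1 peak whose fold and p-value disagreed. The method was run on simulated data with normal errors, whose p-values were made by the formula that the method inverts. That run checks the calculation and cannot show that the implied errors suit the deposited p-values. Python 3.11.15 with pandas 2.3.3, numpy 2.4.6 and scipy 1.17.1 was used. Coordinates are 1-based. Named genes were the 10 widest differences, the 8 strongest members, genes with 2 members, the 8 lowest and 8 highest after PPx, listed genes, the 3 members inside and 3 peaks outside the threshold, and the 5 smallest p-values. Some genes the rule names are not reported here. Members and lists were chosen with earlier results of these data known. The motif search was planned for peaks and was made in promoter windows because no genome was used. Alternatives are given at the end.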

Additional observations from a re-analysis of the deposited data

How the results depend on the processing

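The 359 members became 857 with a difference of 0.5 or more, 144 with 1.0 or more, 191 with a control level of 4.0 or more, 163 with an unadjusted p under 0.05 before PPx, 237 without promoter peaks and 122 with promoters alone. The median difference after PPx stayed above 0, between 0.13 without promoters and 0.60 at promoters alone, and was -0.35 when measured from the median of the table. The 3 members lower in βKO after PPx became 5 with a difference of 0.5 or more, 7 at a deposited FDR under 0.1, 1 without chromosomes X and Y, 0 without predicted genes and 0 at promoters alone. The 14 higher became 46 with a difference of 0.5 or more, 4 with 1.0 or more, 5 with a p under 0.05 before PPx, 5 after Benjamini-Hochberg adjustment over all listed peaks, 41 at an FDR under 0.1 and 0 without promoters. The 258 of 333 below the table's median became 552 of 816 with a difference of 0.5 or more, 100 of 129 with 1.0 or more, 144 of 187 with a control level of 4.0 or more, 118 of 149 with a p under 0.05 before PPx and 59 of 116 at promoters alone; these counts move with the number of members followed. The 9 members lower relative to the median became 10 when every peak took the error of its concentration bin. The settings without chromosomes X and Y and with promoters alone were chosen after seeing the data. The remaining alternatives, which changed how peaks were matched, which repeated row was kept or how many libraries called the peak, left each count within 1.5 times its value. No paired analysis was possible because the tables hold group values, and for the same reason no library could be left out. Median implied standard errors of 0.50 before and 0.388 after PPx limit what can be seen at single peaks.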

Other observations

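The intronic peak of Tmem267 (chr13:119600257-119600857) was called in 0 control and 3 βKO libraries before PPx in the authors' deposited table, although its deposited level was 4.75 for control and 3.40 for βKO. After PPx it read 5.00 and 4.18 in the deposited table, and its implied standard error of 0.63 was above the members' median of 0.388. One other member, at the promoter of the chaperonin gene Cct6a, was called in more βKO than control libraries before PPx (2 and 1 in the deposited table). The choice of members uses levels alone, so both stayed in.

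An intronic peak of Rasgrf2 and a distal peak near Sh3glb1 were both chosen after their values were seen. Their deposited levels were nearly equal between genotypes after PPx (4.94 and 4.90, and 4.35 and 4.39 for control and βKO). Before PPx they were 4.31 and 3.33, and 4.31 and 3.27. Measured from the table's median after PPx, the peaks of Rasgrf2 and Sh3glb1 stood at -0.65 and -0.57.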
